A study of Mus musculus with 6 samples.

Results

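The genes described here are 8 transcription factor genes of macrophages and of the MiT/TFE family: Maf, Nr1h3, Pparg, Spic, Mitf, Tfec, Tfeb and Tfe3. They were taken by symbol from a table of 55487 mouse genes, after identical lines of the same gene had been merged, and each symbol was found once. The table covers 6 libraries of total RNA from Kit-positive mouse bone marrow cells that carried an MLLT3 lentivirus, 3 with the wild type protein (WT) and 3 with the substitutions K63E and K67E (DM). MLLT3 reads acylated histones through its YEATS domain and belongs to complexes that promote transcription elongation. In both groups the transduced cells were sorted and grown for 8 days in methylcellulose with Flt3L (10 ng/mL), with cytokines that included EPO, SCF, GM-CSF, IL-3, IL-6 and IL-11 (20 ng/mL each), with gentamycin, and with 200 nM 4-hydroxytamoxifen, which was added to delete the endogenous Mllt3 gene. The groups therefore share the deletion treatment and an overexpressed MLLT3, no group without a vector was included, and the age, strain and number of mice were not given. The labels place all 6 libraries in batch 1 and do not say whether replicates came from separate animals or cultures, so p-values measure the spread between these samples, which may be technical.

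MAF is a leucine zipper factor of mature macrophages. NR1H3 (LXR alpha) is a nuclear receptor that senses oxysterols and drives cholesterol efflux, PPARG is a nuclear receptor that senses fatty acids and is needed by alveolar macrophages, and SPIC is an ETS factor that haem induces in the red pulp macrophages that recycle iron. MITF, TFEB, TFE3 and TFEC form the MiT/TFE family of helix-loop-helix leucine zipper factors, which bind DNA as dimers at E-boxes. TFEB and TFE3 are held in the cytoplasm by the nutrient sensor mTORC1 and switch on genes of lysosomes and autophagy once released; MITF is also the master regulator of melanocytes and is needed by mast cells and osteoclasts, and TFEC is restricted largely to myeloid cells.

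The best known DNA target of the MiT/TFE factors is the E-box CACGTG in the promoters of lysosomal genes. The sequences below show it in 6 lysosomal genes and in Rragc, which encodes a GTPase of the pathway that controls TFEB. Only genes called higher in DM are shown. Ctsf, Sgsh and Rragb have the hexamer too but were not called. The sequences were read from RefSeq promoter windows on GRCm38.p6, which run from 250 bases before to 50 bases after a start site. They are given 5′ to 3′ on the gene's strand, with CACGTG in capitals.
Ctsd: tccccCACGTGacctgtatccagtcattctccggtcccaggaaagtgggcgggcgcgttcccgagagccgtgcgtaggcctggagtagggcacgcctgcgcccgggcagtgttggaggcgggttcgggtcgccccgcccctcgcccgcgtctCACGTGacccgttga
Gla: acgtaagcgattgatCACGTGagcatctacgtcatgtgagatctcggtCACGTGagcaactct
Cln3: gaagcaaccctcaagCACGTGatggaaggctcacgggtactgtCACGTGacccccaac
Lamp1: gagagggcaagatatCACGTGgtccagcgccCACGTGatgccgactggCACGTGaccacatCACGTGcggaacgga
Mcoln1: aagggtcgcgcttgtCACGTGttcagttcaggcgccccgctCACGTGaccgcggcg
Naglu: agccaaccttcaggtCACGTGgcccgaggt
Rragc: tcaggtgattccgggCACGTGatagtacca
These stretches lie at chr7:142387911-142388077 on the minus strand (Ctsd), chrX:134601185-134601247 minus (Gla), chr7:126583343-126583400 minus (Cln3), chr8:13159085-13159160 plus (Lamp1), chr8:3500433-3500488 plus (Mcoln1), chr11:101070006-101070035 plus (Naglu) and chr4:123917306-123917335 plus (Rragc). The stretch of Lamp1 holds 4 copies of the hexamer, and those of Ctsd, Gla, Cln3 and Mcoln1 hold 2 each.

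Expression is given as rlog values, DESeq2's regularized logarithm to base 2, a transform that corrects for library size and pulls genes with few reads toward their mean, so that changes of low genes are understated. The values run from -1.97 to 21.88, hold no counts, and leave the depth of the libraries unknown. Mllt3, the gene targeted for deletion and supplied by the vector, was at 12.87, 12.6 and 12.44 in WT and 12.44, 12.03 and 11.99 in DM, and these values do not separate the vector's transcripts from the endogenous ones. By limma, Mllt3 passed the threshold as lower in DM, by -0.48 (95% interval -0.79 to -0.17, adjusted p = 0.0448), with overlapping groups. This call was lost in 6 of 12 alternative settings. The groups thus differ in the measured level of Mllt3 as well as in the substitutions. Whether that level plays a part in the changes of other genes was not tested. Kit itself, the selection marker, was read at a mean of 14.39 in WT and 14.6 in DM (limma adjusted p = 0.368). Over all 18766 genes with a mean of at least 3, limma called 2611 genes (13.9%) at an adjusted p under 0.05. Leaving out 1 library gave 1173 (WT replicate 1 dropped), 1119 (DM replicate 2) and 1535 (DM replicate 3). Of the 2611, 66.1% were higher in DM, or 51.3% of the genes called after quantile normalization.

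All 8 genes passed the filter on low values. In DM, 4 of them rose (Nr1h3, Mitf, Tfe3 and Tfeb), none fell, and 4 did not pass the threshold, where 9.2% of all tested genes were called higher and 4.71% lower. Mean values were higher in DM for 7 of the 8 genes, with a median change of 0.35 on the log2 scale against 0.01 over all tested genes. The 3 WT and 3 DM values did not overlap for 5 of the 8, where 35.8% of all tested genes had such groups. The 8 genes were chosen with earlier results of these data known, so these comparisons with all tested genes are descriptive and test nothing about the set. When WT replicate 1, DM replicate 2 or DM replicate 3 was left out, the number that rose was 2 in each case, namely Nr1h3 and Mitf, when 3.23%, 3.18% and 5.05% of tested genes were called higher.

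**Figure D1:**
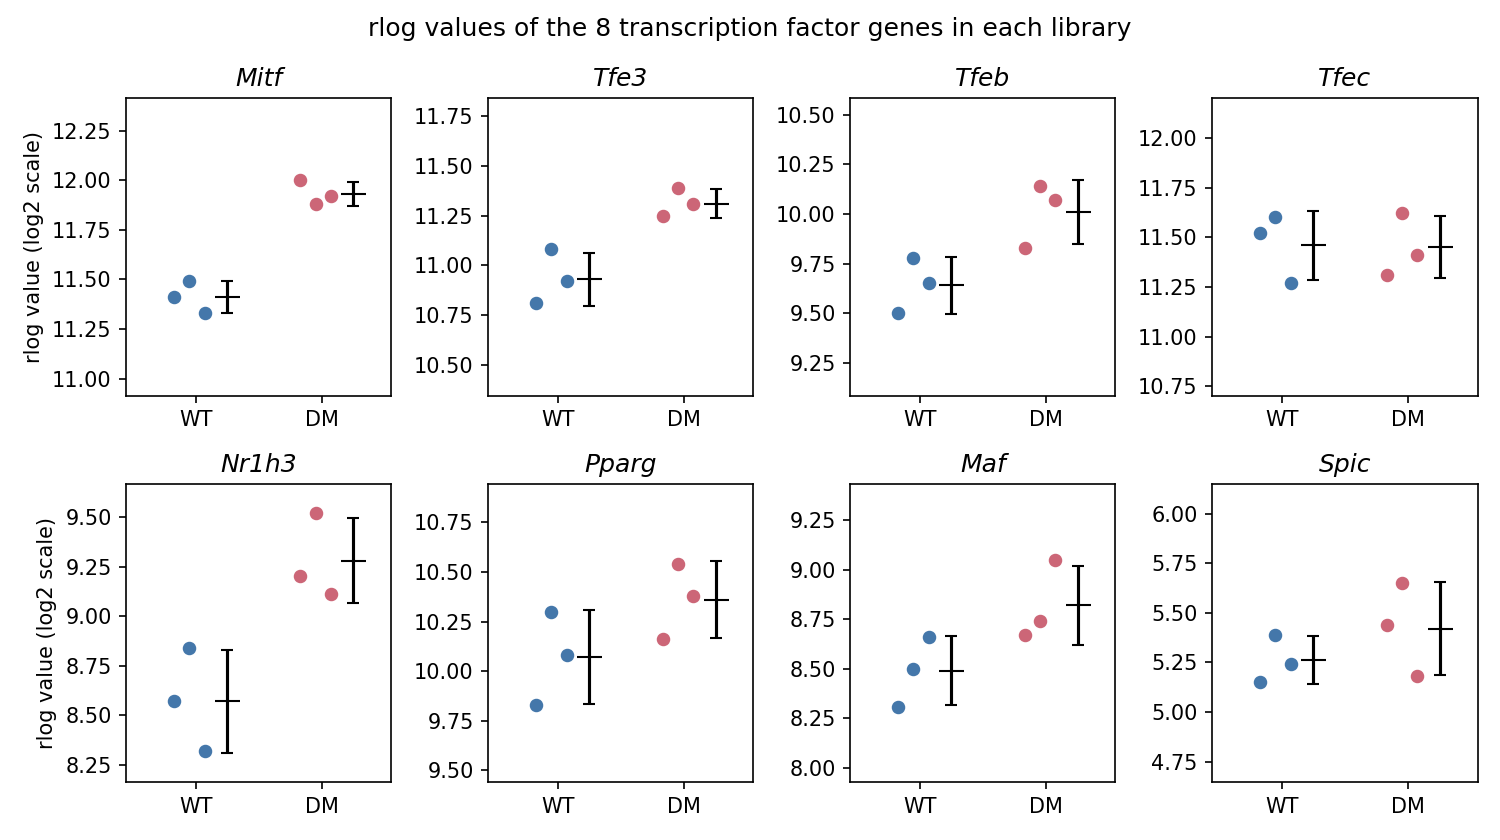
rlog values (log2 scale) of the 8 genes in each of the 6 libraries; points are libraries in the order of replicates 1 to 3, black marks are the mean with the SD (n = 3), and each panel spans 1.5 units. The DM points of Mitf lie between 11.88 and 12 and above its WT points, which lie between 11.33 and 11.49, while the points of Tfec overlap.

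Mitf (ENSMUSG00000035158.15; GRCm38, chromosome 6, 97807052 to 98021349, plus strand) rose with the tightest spread. The WT libraries read 11.41, 11.49 and 11.33 in the order of their replicate numbers, and the DM libraries 12, 11.88 and 11.92. All DM libraries lay above all WT libraries, and the gap between the groups was wider than either group's range. The mean went from 11.41 ± 0.0815 (SD, n = 3) to 11.93 ± 0.0591, a change of 0.52 (SE 0.0714, 95% interval 0.36 to 0.68, limma adjusted p = 0.00293), or 1.44-fold on the rlog scale. Mitf kept its call in all 12 alternative settings, with changes from 0.42 to 0.56.

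Mitf has several promoters used by different cell types, and the gene-level values add up their transcripts. RefSeq gave 3 start windows for it. The third, at chromosome 6, 97991533 to 97991832, holds 1 copy of the cAMP response element TGACGTCA, an element known from the melanocyte promoter of Mitf and found in 1.79% of the 32851 windows of all genes on either strand. It is shown in capitals, at chr6:97991609-97991658 on the plus strand, because it marks 1 of the start sites that these data cannot tell apart.
Mitf: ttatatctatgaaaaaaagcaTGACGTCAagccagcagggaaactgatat
Most melanocyte genes measured were below the filter on low values: Tyr, Dct, Mlana, Tyrp1 and Slc45a2 had values of at most 2.77 in every library and were not tested, while Pmel passed the filter with means of 5.03 in WT and 4.94 in DM.

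Tfe3 (ENSMUSG00000000134.17; chromosome X, 7762560 to 7775202, plus strand) and Tfeb (ENSMUSG00000023990.18; chromosome 17, 47737030 to 47792419, plus strand), the lysosomal regulators under nutrient control, rose by similar amounts. Tfe3 read 10.81, 11.08 and 10.92 in WT against 11.25, 11.39 and 11.31 in DM. Its groups did not overlap, and its change was 0.38 (SE 0.0821, limma adjusted p = 0.0152). Tfeb read 9.5, 9.78 and 9.65 in WT against 9.83, 10.14 and 10.07 in DM. Its lowest DM value lay just above its highest WT value, and its change was 0.37 (SE 0.0992, adjusted p = 0.0358). Tfe3 lost its call when WT1 (WT replicate 1) was dropped (0.32, adjusted p = 0.0706), and likewise for DM2 (0.34, 0.0703) and DM3 (0.38, 0.0526), within a range of 0.00238 to 0.0706 over its alternatives. The call of Tfeb depended on more choices. It was lost on dropping WT1 (0.29, adjusted p = 0.135), WT3 (0.37, 0.0602), DM2 (0.31, 0.135) or DM3 (0.34, 0.122), after quantile normalization (0.3, 0.068) and with no filter on low values (0.37, 0.0711), within a range of 0.00314 to 0.135.

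Tfec (ENSMUSG00000029553.10; chromosome 6, 16833373 to 16898441, minus strand), the myeloid member of the family, had nearly the same mean in both groups. Its values were 11.52, 11.6 and 11.27 in WT and 11.31, 11.62 and 11.41 in DM. The groups overlapped throughout, with a change of -0.01 (SE 0.106, limma adjusted p = 0.951) and a 95% interval from -0.25 to 0.22, which lies below the change measured for Mitf. The sign of this small change depended on the libraries included.

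The differences among the 4 paralogs were compared within libraries, as the rlog value of one gene minus that of another, for all 6 pairs. Mitf minus Tfec was -0.1, -0.11 and 0.06 in WT and 0.68, 0.26 and 0.51 in DM, a shift of 0.54. Tfec minus Tfe3 shifted by -0.39 and Tfec minus Tfeb by -0.38. In these 3 pairs, each of which includes Tfec, the WT and DM values did not overlap. The exact two-sided permutation p was 0.1 for each, the smallest that 3 against 3 allows, and 0.2 after Benjamini-Hochberg adjustment over the 6 pairs, so this test could not take any of them past 0.05. Tfeb minus Tfe3 shifted by -0.01 (exact permutation p = 1), Mitf minus Tfe3 by 0.14 (0.2) and Mitf minus Tfeb by 0.16 (0.4), each with overlapping groups.

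Divided by the length of each gene's annotated exons, Tfec and Mitf had the highest means of the 8 genes in both groups. This order between genes is approximate, because the length adds up the exons of all annotated isoforms and can exceed that of the transcripts present. It was 9261 bases for Tfe3 and 2953 for Pparg, for instance. On the scale of rlog value minus log2 of the exon length in kb, the WT means were 8.98 for Tfec, 8.78 for Mitf, 8.51 for Pparg, 7.72 for Tfe3, 7.24 for Nr1h3, 7.14 for Tfeb, 5.45 for Maf and 3.32 for Spic. Neighbours whose WT values overlapped were Tfec and Mitf, Mitf and Pparg, and Nr1h3 and Tfeb. In DM, Mitf came first at 9.3, above Tfec at 8.97, and their values no longer overlapped (9.25 to 9.37 against 8.83 to 9.14). Tfec and Pparg overlapped there, as did Tfe3 and Nr1h3.

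As shares of the summed level per kb of the 4 MiT/TFE genes, taken back to the linear scale, Mitf made up 34.2%, 33% and 34.4% in WT and 42.9%, 36.7% and 39.7% in DM. Tfec made up 40.8%, 39.5% and 36.5% in WT and 29.6%, 33.9% and 31% in DM. The level of Tfec itself hardly differed, while the log2 of the 4-gene sum per kb was 10.33, 10.46 and 10.24 in WT and 10.59, 10.7 and 10.62 in DM, higher in every DM library. Neither gene's shares overlapped between the groups. Read library by library, Tfec had a larger share than Mitf in every WT library and a smaller one in every DM library. Tfe3 stayed between 15.1% and 17.4% and Tfeb between 9.92% and 12%, with overlapping groups. These shares are approximate, because the exon length adds up all annotated isoforms and rlog values are shrunken.

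**Figure D2:**
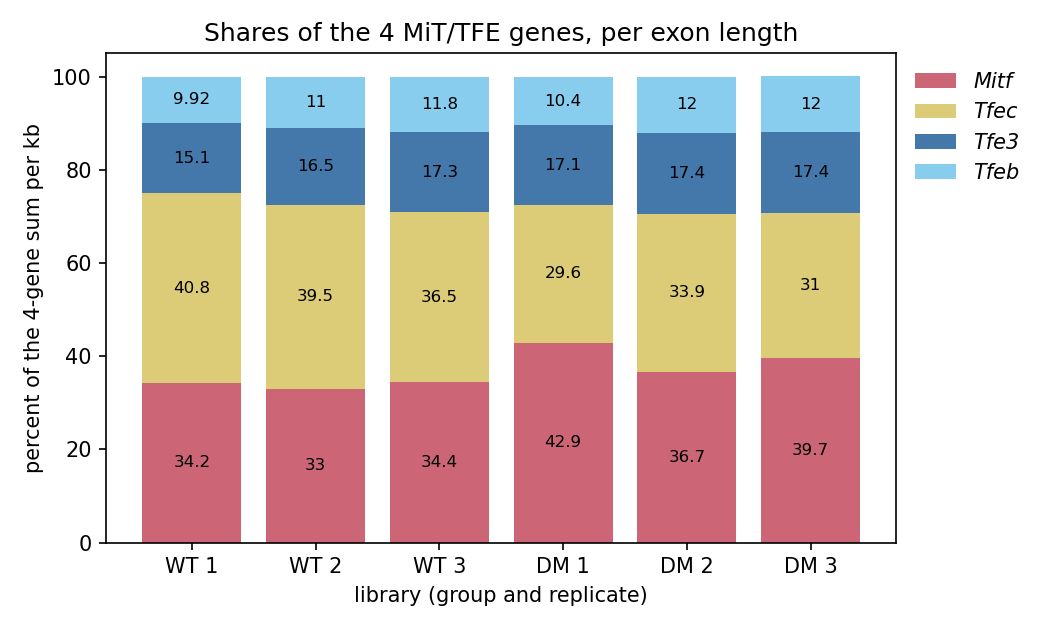
Share of each MiT/TFE gene (percent) in the sum of the 4 genes per kb of exon, for each of the 6 libraries, with the value written in each segment. The Mitf segment is 33% to 34.4% in WT and 36.7% to 42.9% in DM, and the Tfec segment is 36.5% to 40.8% in WT and 29.6% to 33.9% in DM, where the 4-gene sum was larger and the mean of Tfec differed by -0.01.

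Nr1h3 (ENSMUSG00000002108.10; chromosome 2, 91184061 to 91202834, minus strand), which encodes LXR alpha, had the largest mean change of the 8 genes. Its rlog values were 8.57, 8.84 and 8.32 in WT and 9.2, 9.52 and 9.11 in DM. All DM libraries lay above all WT libraries, although the spread within groups was wider than for Mitf. The mean went from 8.57 ± 0.261 (SD, n = 3) to 9.28 ± 0.215, a change of 0.7 (SE 0.139, 95% interval 0.39 to 1.01, limma adjusted p = 0.0108), or 1.63-fold. It kept its call in all 12 alternatives, from 0.58 to 0.84. Nr1h2, which encodes LXR beta and is found in most cell types, changed by 0.13 (adjusted p = 0.188), and Rxra, the partner with which LXR and PPAR receptors bind DNA, rose by 0.6 (SE 0.109, adjusted p = 0.00839).

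Pparg, Maf and Spic had higher means in DM but did not pass the threshold. Pparg (ENSMUSG00000000440.12; chromosome 6, 115360951 to 115490399, plus strand) was at 9.83, 10.3 and 10.08 in WT and 10.16, 10.54 and 10.38 in DM. The highest WT library lay above the lowest DM library, and the change was 0.29 (95% interval 0.01 to 0.57, limma adjusted p = 0.167). Maf (ENSMUSG00000055435.6; chromosome 8, 115682942 to 115707794, minus strand) read 8.31, 8.5 and 8.66 in WT against 8.67, 8.74 and 9.05 in DM. Its groups met without overlapping, and the change was 0.33 (95% interval 0.07 to 0.59, adjusted p = 0.0878). Pparg passed the threshold without WT replicate 2 (0.41, adjusted p = 0.0486, from 0.00808 to 0.413 over the alternatives), and Maf passed it without WT replicate 3 (0.42, 0.0475, from 0.00912 to 0.264). Both also passed it with all 6 libraries when replicate number was added to the fit as a block, Pparg at 0.29 (limma adjusted p = 0.00808) and Maf at 0.33 (0.00912).

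Spic (ENSMUSG00000004359.16; chromosome 10, 88674772 to 88685015, minus strand) had the lowest values of the 8. It was at 5.15, 5.39 and 5.24 in WT and 5.44, 5.65 and 5.18 in DM, where 1 DM library lay within the WT range. Its change was 0.17 (95% interval -0.08 to 0.42, limma adjusted p = 0.347), and at this level the shrinkage of rlog values limits any change that could be seen. None of the other genes annotated within the spans of Maf, Nr1h3, Pparg and Mitf had a value above 1.43 in any library.

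**Figure D3:**
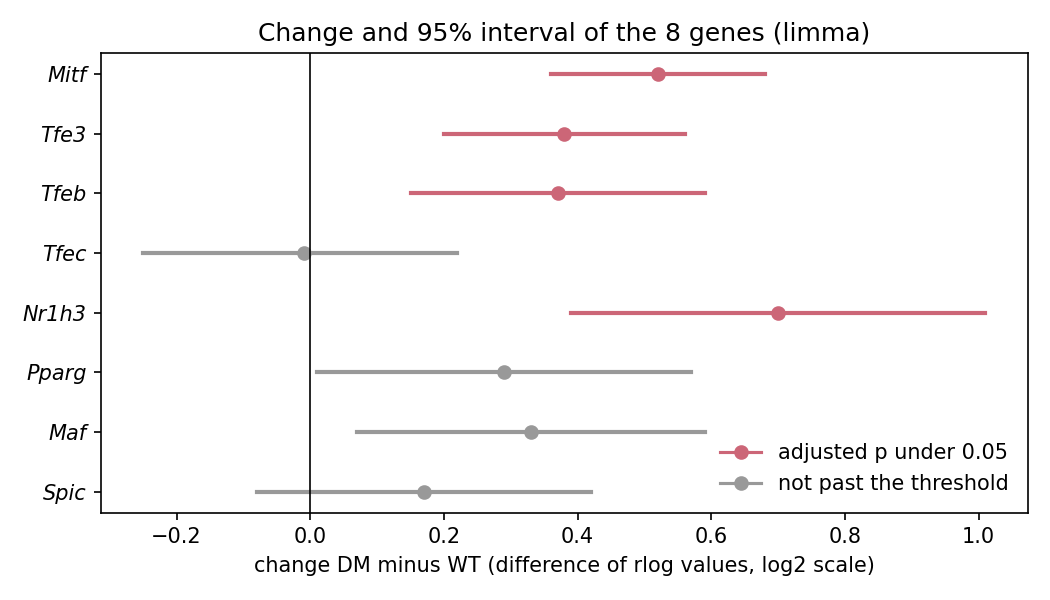
Change in DM minus WT (difference of mean rlog values, log2 scale) for the 8 genes, with the 95% interval from limma; red marks an adjusted p under 0.05 and grey a gene not past the threshold. The interval of Mitf runs from 0.36 to 0.68 and that of Tfec from -0.25 to 0.22.

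The marker genes of cell types moved too, where 9.2% of all tested genes were called higher and 4.71% lower. The marker lists were chosen with earlier results of these data known. Of 12 monocyte and macrophage markers, 8 rose and 2 fell, and their summed level (log2 of the sum of linear values) ranged from 18.09 to 18.71 in WT and from 18.98 to 19.38 in DM. Csf1r, the receptor for macrophage colony-stimulating factor, rose by 0.73 (limma adjusted p = 0.00415) and Adgre1 (F4/80) by 0.63 (0.00423). The members that fell mark inflammatory monocytes, namely Ly6c2 (-1.13, adjusted p = 0.00361) and Ccr2, a chemokine receptor (-0.78, 0.00975). Of 12 neutrophil markers, 10 fell and none rose, with sums of 18.54 to 18.97 in WT and 17.16 to 18.02 in DM. Of 8 mast cell and basophil markers, 1 fell and none rose, with overlapping sums of 18.74 to 19.1 and 18.75 to 19.22, and of 8 progenitor markers, 2 fell and none rose. Of 5 tested dendritic cell markers, 4 rose, with sums of 13.17 to 13.78 in WT and 14.12 to 14.45 in DM. They were the integrin Itgax (0.98, limma adjusted p = 0.0108), Cd74 (0.81, 0.00691), H2-Ab1 (0.79, 0.00684) and, by less, Clec9a (0.23, 0.0499). Zbtb46 did not pass the threshold (-0.07, 0.468), and Xcr1, Siglech and Cd209a were below the filter on low values. Of 8 eosinophil markers, 3 fell, among them the peroxidase Epx (-1.46, adjusted p = 0.000118), with sums of 15.12 to 15.25 in WT and 13.82 to 14.34 in DM. In bulk RNA, more cells of a type and more RNA of a gene per cell cannot be told apart. The part of these cell type markers in the changes of the 8 genes and of the lists below was not tested. Spi1, which encodes PU.1, the general myeloid ETS factor, changed by 0.15 (adjusted p = 0.317).

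Genes tied to each factor in the literature were read from 9 lists, in which a gene may stand more than once. The lists were chosen with earlier results of these data known, so their counts are descriptive. Over all tested genes, 9.2% were called higher and 4.71% lower. Without WT replicate 1 and without DM replicate 2, 3.23% and 3.18% were called higher. Among 24 lysosomal and autophagy genes known as MiT/TFE targets, 18 rose, none fell and 6 did not pass the threshold, with a median change of 0.43. Gpnmb, a membrane glycoprotein of macrophage lysosomes, rose by 0.96 (SE 0.194, limma adjusted p = 0.012) from a mean of 16.22 to 17.17. Ctsb (cathepsin B) rose by 0.8 (adjusted p = 0.0108) and Psap (prosaposin) by 0.79 (0.0114). The genes whose promoters are shown above rose by 0.67 (Ctsd), 0.62 (Lamp1), 0.53 (Gla), 0.45 (Naglu), 0.41 (Mcoln1) and 0.37 (Cln3), and they were chosen after their values were seen. The number of the list that rose was 9 without WT replicate 1 and 10 without DM replicate 2. Lamp1, Naglu, Mcoln1 and Cln3 lost their calls in both of these fits, Mcoln1 and Cln3 also without DM3, and Psap without WT1.

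RefSeq promoter windows were matched by symbol to 19 of these 24 genes, and 10 of the 19 (52.6%) had CACGTG in at least 1 window, against 1372 of 12349 tested genes with a window (11.1%). Of the 10, 8 rose, and of the 9 with a window but no hexamer, 6 rose, a difference that was not tested. Ctsf and Sgsh, which have the hexamer, changed by 0.14 and 0.06 and did not pass the threshold. The hexamer reads the same on both strands. Because the list is made of known targets, whose E-boxes are part of why they are known, this share describes the list. In the list of nutrient control genes, 6 of 19 genes with a window (31.6%) had the hexamer. Of these 6, 5 rose (Fnip1, Lamtor1, Lamtor4, Rheb and Rragc), as did 5 of the other 13, a difference that was not tested. All 5 with the hexamer lost their calls without WT replicate 1 and also without DM replicate 2. The other gene with the hexamer, Rragb, changed by 0.05 (limma adjusted p = 0.666). In the iron recycling list, none of 10 genes with a window had the hexamer.

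The control of TFEB, TFE3 and MITF by nutrients runs through the Rag GTPases, their Ragulator anchor on the lysosome, folliculin with its partners, and mTORC1. The list of 21 genes read for this control also holds Tsc1, Tsc2, Rheb and the calcineurin genes Ppp3ca, Ppp3cb and Ppp3r1. Of the 21, 11 rose, none fell and 10 did not pass the threshold, with a median of 0.27. The largest rises were those of Fnip2, a folliculin partner (0.74, limma adjusted p = 0.00385), and Rragd, a Rag GTPase that is itself a MiT/TFE target and stands in both lists (0.64, 0.00999). Rragc rose by 0.39 (0.0125) and Lamtor3, a Ragulator subunit, by 0.37 (0.0101). The number past the threshold was 3 without WT1, 7 without WT3, 7 without DM1, 3 without DM2, 5 without DM3, 7 after quantile normalization and 6 without the filter on low values. Rragc lost its call without WT1 and without DM2.

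For the tissue-specific roles of MITF, the osteoclast and mast cell lists were read separately. Of 13 tested genes of the osteoclast programme, 7 rose, none fell and 6 did not pass the threshold, with a median of 0.36. Those not past it were Ctsk (0.59, limma adjusted p = 0.0532), Acp5 (0.26, 0.174), Src (0.35, 0.143), Itgb3 (0.14, 0.513), Ocstamp (-0.12, 0.178) and Mmp9 (-0.21, 0.498). Oscar and Calcr were below the filter on low values. Atp6v0d2, a proton pump subunit of macrophages and osteoclasts, rose by 0.99 (limma adjusted p = 0.0114), Clcn7, a lysosomal chloride transporter, by 0.65 (0.00385), Dcstamp, a cell fusion protein, by 0.47 (0.00492), and Tnfrsf11a, the receptor RANK, by 0.44 (0.0248). On dropping WT1, WT3 or DM2, the number that rose was 3, 4 and 3, and Tnfrsf11a lost its call in each, as it did without DM3. Of 13 mast cell genes tied to MITF, 1 rose (Hpgds, a prostaglandin synthase, 0.47, adjusted p = 0.0113) and 1 fell (Hdc, which makes histamine, -0.62, 0.0457), with a median of 0.12 (-0.08 after quantile normalization and -0.03 without DM1). These counts were near the shares over all tested genes, 9.2% higher and 4.71% lower. The call of Hdc was lost in 7 of 12 alternatives, among them centring on the library median and 4 of the 6 fits that left out a library (WT2, WT3, DM2 or DM3), where the list had 1 call. Whether the 2 lists differ was not tested.

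Of 14 tested LXR targets, 5 rose, 3 fell and 6 did not pass the threshold, with a median of 0.15. Besides Srebf1, those not past it were Pltp (0.24, limma adjusted p = 0.0652), Mylip (0.15, 0.299), Arl4c (0.15, 0.292), Apoe (0.08, 0.63) and Lpcat3 (0.02, 0.893). The cholesterol exporters rose, Abca1 by 0.62 (limma adjusted p = 0.0121) and Abcg1 by 0.67 (0.0142), both named after their values were seen. Lpl (lipoprotein lipase) rose by 0.97 (0.00828), Mertk, a receptor for dying cells, by 0.81 (0.0131) and Smpdl3a, a phosphodiesterase, by 0.71 (0.0149). The members that fell all act in fatty acid synthesis: Scd1 (-0.87, 0.0042), Scd2 (-0.69, 0.00729) and Fasn (-0.42, 0.0171). Srebf1, which encodes the LXR-driven regulator of fatty acid synthesis SREBP-1, changed by -0.17 (0.173), and by -0.27 (adjusted p = 0.0273) after quantile normalization, its only call among adjusted p values of 0.0273 to 0.408 over the alternatives. Without DM replicate 2, 2 members rose and 2 fell, and Mertk, Smpdl3a, Abcg1 and Fasn lost their calls. Abcg1 and Fasn also lost them without WT1 and without DM3.

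Of 13 tested PPARG targets, 8 rose and none fell, with a median of 0.47. The largest rises were those of Cd36, a fatty acid and lipoprotein receptor (1.13, limma adjusted p = 0.016), Lpl (as above), Fabp4, a fatty acid carrier (0.84, 0.0162), and Olr1, a receptor for oxidized lipoprotein (0.59, 0.0146). These calls rested on few libraries: without WT replicate 1 the list had 1 call, and likewise without DM replicate 2, although its median was 0.39 and 0.44 there. Cd36, Fabp4 and Olr1 lost their calls in both fits. Of 6 fat cell genes, Adipoq, Lep and Cfd were at or below 2.64 in every library. Retn (means of 4.39 in WT and 4.4 in DM), Plin1 (3.4 and 3.3) and Cidec (3.06 and 2.97) passed the filter on low values and were not called.

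Of 16 genes of iron recycling macrophages, the cells that depend on SPIC, 12 rose, 1 fell and 3 did not pass the threshold, with a median of 0.51. Slc11a1, a metal transporter of phagosomes, rose by 0.96 (limma adjusted p = 0.00271), Axl, a receptor for dying cells, by 0.8 (0.0165), and Hmox1, which breaks down haem, by 0.69 (0.0141). The member that fell was Vcam1 (-0.74, 0.00423), an adhesion molecule and a known SPIC target. Slc40a1, the iron exporter ferroportin, changed by -0.41 (0.0521, from 0.00321 to 0.147 over the alternatives), and Bach1, the haem-sensing repressor of Spic, rose by 0.31 (0.033). Slc40a1 passed the threshold in 5 alternatives, among them quantile normalization and the fit without DM replicate 2, and the call of Bach1 was lost in 6. The counts higher and lower were 5 and 1 without WT1, and 5 and 2 without DM2, and Axl and Hmox1 lost their calls in both fits.

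The list of macrophage genes associated with MAF had 12 tested genes, of which 5 rose, 1 fell and 6 did not pass the threshold, with a median of 0.19 (-0.02 with no filter on low values, over 17 genes). Msr1, a scavenger receptor, rose by 1 (limma adjusted p = 0.00664), Marco, another, by 0.99 (0.0342), and Mertk as given above. F13a1, the A chain of coagulation factor XIII, was the member that fell, by 1.49 on the log2 scale (SE 0.115, adjusted p = 0.000134), from a mean of 9.06 to 7.57. The complement genes that mark many resident macrophages were close to the floor, with means of 3.07 and 3.02 for C1qb, 3.64 and 3.55 for C1qc, and no value above 2.56 for C1qa. The calls numbered 3 without WT1, 3 without WT3 and 2 without DM2, and Marco lost its call in these fits and without DM1.

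Among 20 tested relatives and partners of the factors, 8 rose and none fell, with a median of 0.17. Besides Rxra, these included Maff, a small MAF protein (0.42, limma adjusted p = 0.00829), and Ncoa1, a coactivator of nuclear receptors (0.47, 0.0333). The calls of Rxra and Maff held in all 12 alternatives, and that of Ncoa1 in 6. The list's calls numbered 3 without WT1, 4 without WT3, 3 without DM2, 3 without DM3, 5 after quantile normalization (4 higher and 1 lower) and 3 without the filter on low values.

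**Figure D4:**
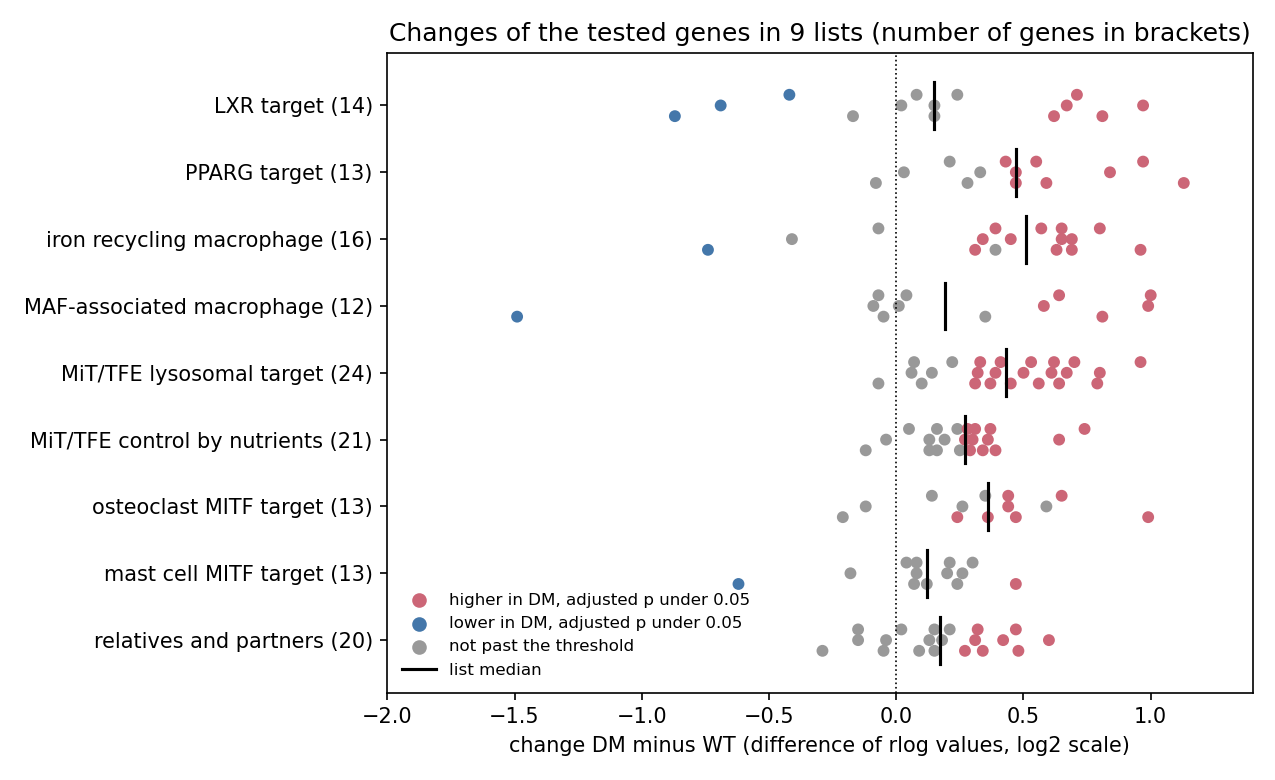
Change in DM minus WT (log2 scale) of every tested gene in the 9 lists, as 1 point per gene; red points rose and blue points fell at an adjusted p under 0.05, grey points did not pass, and black bars are list medians. The bar of the lysosomal MiT/TFE targets is at 0.43 with no blue point, and that of the mast cell genes is at 0.12.

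The promoter windows of the 8 genes themselves held few of the elements searched. RefSeq gave windows for 7 of the 8 genes, 15 in all, and none for Maf. The motifs searched on both strands were CACGTG, the M-box TCATGTG, the PU.1 core GAGGAAGT, the AP-1 site TGANTCA, the cAMP response element TGACGTCA, the MAF recognition element, and the direct repeats bound by LXR and by PPAR with RXR. The AP-1 site lies inside the MAF element, so a match there would count for both. The only matches were the CRE of Mitf shown above and 1 AP-1 site in a Tfe3 window, 34 bases after the start site, an element found in 7.81% of all windows. CACGTG was found in 7.15%, TCATGTG in 3.77%, GAGGAAGT in 3.2%, and the MAF, LXR and PPAR elements in 0.00609%, 0.0152% and 0.0396% of all windows.

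Genes whose values ran closest to those of the 4 factors that rose were found by Pearson's r over the 6 libraries, among 11970 genes with a mean of at least 6. They were Golga4 and Slc39a14 for Mitf (r = 0.9993 and 0.9978), Sphk2 and Wipf1 for Tfe3 (0.9992 and 0.9986), Reep3 and Arhgef11 for Tfeb (0.9986 and 0.9975), and Mtpn and Slc8a1 for Nr1h3 (0.9999 and 0.999). Such likeness was common with so few libraries that also share the difference between the groups: 4.74% of these genes had an r above 0.95 with Mitf, 7.72% with Tfe3, 3.15% with Tfeb and 11.2% with Nr1h3. Slc39a14, a zinc and iron importer, rose by 0.4 (limma adjusted p = 0.00629), and Slc8a1, a sodium and calcium exchanger, by 0.82 (0.00857).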

How the data were processed

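The deposited table holds log2 values made by the authors with the regularized log of DESeq2, read from its name and its values. The submitters' processing notes list cutadapt 2.6, STAR 2.7.3, DESeq2 1.30.0 and mm10, while the counting tool, the use of strand and the annotation are not given in the sources used here. The 142699 lines were merged into 55487 genes, of which 98.1% matched GENCODE M21 (GRCm38) by versioned identifier, the source of coordinates and exon lengths. limma 3.58.1 in R 4.3.3 (lmFit, eBayes with a mean-variance trend) compared DM with WT without covariates over 18766 genes (mean rlog value 3 or more), with Benjamini-Hochberg adjustment over all of them and a threshold of 0.05. The script was tested on simulated data.

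The 8 members, the 9 pathway lists and the marker lists were chosen with earlier results of these data known. Genes named from a list were up to 4 called members with the largest change and every called member that moved against most others; for each called factor, the 2 genes with the highest r were added. Items withheld for evaluation are not reported here. Other genes named were chosen after their values were seen. Alternatives were 2 other filters, no trend, quantile normalization, centring on the library median, a replicate block, and each library left out. Figures were drawn with matplotlib 3.10.9.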

Additional observations from a re-analysis of the deposited data

How the results depend on the processing

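Nr1h3 and Mitf kept their calls in all 12 alternatives, and Spic and Tfec were called in none. Of the 34 genes named from lists, 20 kept their calls throughout and 14 lost them in at least 1 alternative, 11 of them without WT replicate 1 and 13 without DM replicate 2, and none changed sign. With 1 library left out, the number of called genes ran from 1119 to 3474 (598 to 2323 higher and 521 to 1151 lower), the number of the 8 factors called from 2 to 5, and the change of Tfec from -0.11 to 0.06. The calls in lists then ran from 4 to 8 for LXR targets, 1 to 9 for PPARG targets, 6 to 14 for iron recycling, 2 to 6 for MAF-associated genes, 9 to 18 for lysosomal targets, 3 to 14 for nutrient control, 3 to 8 for osteoclast genes, 1 to 2 for mast cell genes and 3 to 8 for relatives and partners. Without the filter on low values, 1132 genes were higher, and calls numbered 6 for nutrient control, 1 for mast cell genes and 3 for relatives and partners. Quantile normalization left 7 for nutrient control and 5 for relatives and partners. Mast cell genes had 1 call without the mean-variance trend and 1 after centring on the library median. The cause of these moves was not tested. Some of these settings also changed the number of libraries or of genes tested.

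Same-numbered libraries deviated together with correlations of 0.49, 0.12 and 0.04 for replicates 1 to 3, and libraries of different numbers with correlations from -0.34 to 0.12. WT replicate 3 correlated best with DM replicate 2 (0.12), and the labels name no pairing. The main fit therefore did not pair the samples by number, although these values cannot exclude a pairing. With the replicate block, 3742 genes (19.9%) were called and 2632 were higher. Of the 8 factors, 6 rose in this fit, with Maf (limma adjusted p = 0.00912) and Pparg (0.00808) added, and 4 mast cell genes were called. Depth is unknown, and the shrinkage of rlog values limits what can be seen of low genes such as Spic.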
